A study of Homo sapiens with 3 samples.

Results

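The nuclear-encoded subunits of the mitochondrial respiratory chain were examined by complex in LNCaP, a line grown from a human prostate cancer metastasis, after transfection with HOXD-AS1 siRNA 1, HOXD-AS1 siRNA 2 or a control siRNA. HOXD-AS1 is a long non-coding RNA transcribed from the HOXD gene cluster, and its own level was not analysed here. Members were the probe sets with a single annotated gene symbol of the NDUFA, NDUFB, NDUFC, NDUFS or NDUFV series, an SDH symbol, a UQCR symbol, COX4 to COX8 symbols, an ATP5 symbol, CYC1 or CYCS. This gave 194 of 49388 probe sets and 84 of 18131 genes, of which 79 were measured, meaning that the brightest probe set read above a floor intensity of 25.96, the median of all values, on at least 1 array. Complex I held 35 member genes, complex II 3, complex III 9, complex IV 17 and complex V 19, and CYCS, the mobile carrier cytochrome c, was kept apart. Another 12 probe sets that pair a member symbol with other symbols were left out.

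All groups were labelled as LNCaP, transfected with 75 nM siRNA with a lipid carrier and grown for 48 h in serum-containing RPMI-1640 free of phenol red. Each group held 1 array of total RNA, so no difference here has a replicate check or a test, and both differences from the control share the control array. The source labels name the cells as LNCaP-Bic for siRNA 1, LNCaP-AI for siRNA 2 and LNCaP for the control, so a difference between cells of these names and a difference between siRNAs cannot be told apart. Labels give an inhibition rate of 0.23 for siRNA 1 and 0.25 for siRNA 2 relative to 1 for the control, without saying how it was measured. The prostate genes KLK3, KLK2, TMPRSS2, HOXB13, KRT8 and KRT18 were measured on every array, with summed intensities of 13866, 11477 and 13165 for siRNA 1, siRNA 2 and the control. Of 7 markers of androgen receptor-negative lines and stroma, VIM and COL1A1 were measured, the 7 summing to 685 with siRNA 1, 840 with siRNA 2 and 755 in the control, and 0 of 4 leukocyte markers were. In bulk RNA, fewer cells of a kind and less RNA per cell cannot be told apart. The median intensity over all probe sets was 25.7 with siRNA 1, 26.1 with siRNA 2 and 26.1 in the control.

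The respiratory chain moves electrons from NADH through complex I, and from succinate through complex II, to coenzyme Q, on to complex III, cytochrome c and complex IV, which reduces oxygen. Complexes I, III and IV pump protons across the inner mitochondrial membrane, and complex V, the ATP synthase, uses the gradient to make ATP. Most subunits are encoded in the nucleus, where the factors NRF1 and GABPA, an ETS family member, are known regulators of many of their genes, while a smaller set, including catalytic subunits of complexes I, III and IV, is encoded by mitochondrial DNA.

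The genes that stood furthest below the control with siRNA 1 were ATP5MC1, NDUFS7, SDHD and NDUFB10, and their promoter windows are shown because they carry the largest differences of complexes V, I and II. ATP5MC1 lies on chr17:48892787-48895871, SDHD on chr11:112086873-112095794, NDUFS7 on chr19:1383907-1395584 and NDUFB10 on chr16:1959538-1961975, all on the plus strand of GRCh38.p14 in the RefSeq annotation. Each window runs from 250 bases before to 50 bases after the annotated start and is read 5′ to 3′. The windows are chr17:48892537-48892836, chr11:112086623-112086922, chr19:1383657-1383956 and chr16:1959288-1959587. Capitals mark letters that match 1 of 5 motifs searched on both strands, namely those of NRF1, ETS factors (CCGGAAG), YY1 (AAGATGGC) and THAP11 and the E-box (CACGTG). The NRF1 motif is the run in capitals that comes first in the SDHD window, with any base allowed at the fifth place, and the THAP11 motif is the run in the NDUFB10 window, with any base at the seventh and the eighth.
ATP5MC1: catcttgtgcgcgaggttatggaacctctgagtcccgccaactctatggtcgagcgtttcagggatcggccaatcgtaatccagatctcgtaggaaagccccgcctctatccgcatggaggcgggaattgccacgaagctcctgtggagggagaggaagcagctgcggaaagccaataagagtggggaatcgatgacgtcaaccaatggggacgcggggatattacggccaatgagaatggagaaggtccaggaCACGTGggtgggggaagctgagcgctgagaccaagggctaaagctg
SDHD: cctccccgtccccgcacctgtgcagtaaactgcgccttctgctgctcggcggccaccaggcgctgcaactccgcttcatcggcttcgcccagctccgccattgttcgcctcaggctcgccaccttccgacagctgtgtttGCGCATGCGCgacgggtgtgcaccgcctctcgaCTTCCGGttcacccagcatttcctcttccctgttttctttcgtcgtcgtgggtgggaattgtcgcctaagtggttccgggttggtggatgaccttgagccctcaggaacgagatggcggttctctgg
NDUFS7: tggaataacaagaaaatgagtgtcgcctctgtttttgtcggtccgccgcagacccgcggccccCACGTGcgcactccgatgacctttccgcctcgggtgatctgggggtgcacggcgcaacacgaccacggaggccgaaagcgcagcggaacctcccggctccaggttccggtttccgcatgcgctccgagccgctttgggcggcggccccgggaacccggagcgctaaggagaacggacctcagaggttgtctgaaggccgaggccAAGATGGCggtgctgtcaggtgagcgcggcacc
NDUFB10: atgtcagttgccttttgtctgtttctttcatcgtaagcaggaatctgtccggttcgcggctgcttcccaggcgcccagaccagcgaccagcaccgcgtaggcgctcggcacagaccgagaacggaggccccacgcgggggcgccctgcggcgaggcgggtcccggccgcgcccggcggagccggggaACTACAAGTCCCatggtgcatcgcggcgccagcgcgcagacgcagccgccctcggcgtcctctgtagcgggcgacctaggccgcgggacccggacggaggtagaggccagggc
These windows share no single motif. The SDHD window held the NRF1 letters at position -110 and the ETS letters at position -77, counted from the start as 0. NDUFS7 held the YY1 letters at 17 and the E-box at -187, ATP5MC1 held the E-box at 4, and NDUFB10 held the THAP11 letters at -63.

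Over the 66 measured members with a promoter window in the RefSeq table, the NRF1 letters were present in 22.7% of genes, against 6.98% of all 27305 genes of the table. The ETS letters were present in 30.3% of members and 12.2% of all genes, the YY1 letters in 16.7% and 3.52%, the THAP11 letters in 7.58% and 2.15%, and the E-box in 10.6% and 8.77%. The members compared are measured genes, whereas the 27305 genes include genes not measured here. Shares among measured genes alone were not computed. A match is a description of letters and not a bound site. The members with and without the NRF1 letters had median log2 differences of -0.19 and -0.21 with siRNA 1, and of -0.02 and -0.01 with siRNA 2. For the ETS letters the medians were -0.17 with and -0.20 without them for siRNA 1, and 0.03 and -0.02 for siRNA 2. The E-box gave the widest gap of the 5 motifs with siRNA 1, with medians of -0.09 for the 7 members with it and -0.22 for the 59 without it, and of 0.06 and -0.02 with siRNA 2. Those 7 members include the ones furthest below the control with siRNA 1, ATP5MC1 at -1.64 and NDUFS7 at -1.45, and reach 0.09 at UQCR11. The median of so few genes therefore does not place E-box members nearer the control.

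Respiratory chain genes were mostly below the control with siRNA 1 and evenly divided with siRNA 2. With siRNA 1, 61 of 79 measured members (77.2%) were lower than the control, where 48% of all 11286 measured genes were lower, and the median log2 difference was -0.19 against 0.00 for all genes. With siRNA 2, 42 of 79 (53.2%) were lower, where 46.9% of all measured genes were, and the median was -0.02 against 0.01. The shift with siRNA 1 was small for most genes. At a 1.2-fold threshold 30 of 79 members were lower with siRNA 1, beside 20.2% of all genes, and 8 of 79 with siRNA 2, beside 18.8%. At 1.5-fold, 7 members (8.86%) were lower with siRNA 1, close to the 6.16% of all genes, and 0 were higher, beside 6.9%. With siRNA 2, 1 member was lower and 1 higher at 1.5-fold, beside 4.67% and 4.75% of all genes. At 2-fold, 3 members were lower and 0 higher with siRNA 1, beside 199 and 153 of all 11286 measured genes. With siRNA 2, 0 members were lower and 0 higher at 2-fold, beside 68 and 89 of all measured genes.

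Set directly against siRNA 2, which leaves out the control array, siRNA 1 gave lower values for 69 of 79 members (87.3%), where 53.1% of all measured genes were lower. The median log2 difference of siRNA 1 from siRNA 2 was -0.19, against -0.02 over all measured genes, and 23 members were lower at 1.2-fold, beside 20.6%. At 1.5-fold, 5 members (6.33%) were lower with siRNA 1 than with siRNA 2, beside 4.87% of all genes, and 0 were higher, beside 6.52%. At 2-fold, 2 members were lower and 0 higher, beside 74 and 176 of all 11286 measured genes. The array that read lowest was siRNA 1 for 57 of the 79 members, siRNA 2 for 7 and the control for 15. The same count was not made over all measured genes. Of those, 48% were lower with siRNA 1 than in the control and 53.1% lower than with siRNA 2. Members tend to be bright on the array, with 65 of 79 above a mean intensity of 1000, where 1171 of all measured genes were. Among those 65, a restriction chosen once values were known, 51 were lower with siRNA 1, where 49.7% of genes of that brightness were, and 34 with siRNA 2, where 52.6% were. Against siRNA 2, 59 were lower with siRNA 1, where 53.3% were. Their medians against the control were -0.19 and -0.01. The brightest members lay nearest the control with siRNA 1: the 40 members above 3000 had a median of -0.09, the 25 between 1000 and 3000 of -0.27, and the 14 below 1000 of -0.25. With siRNA 2 the medians of those 40, 25 and 14 members were 0.05, -0.07 and -0.13, and all measured genes in the same ranges had medians within 0.02 of 0 with each siRNA.

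**Figure D1:**
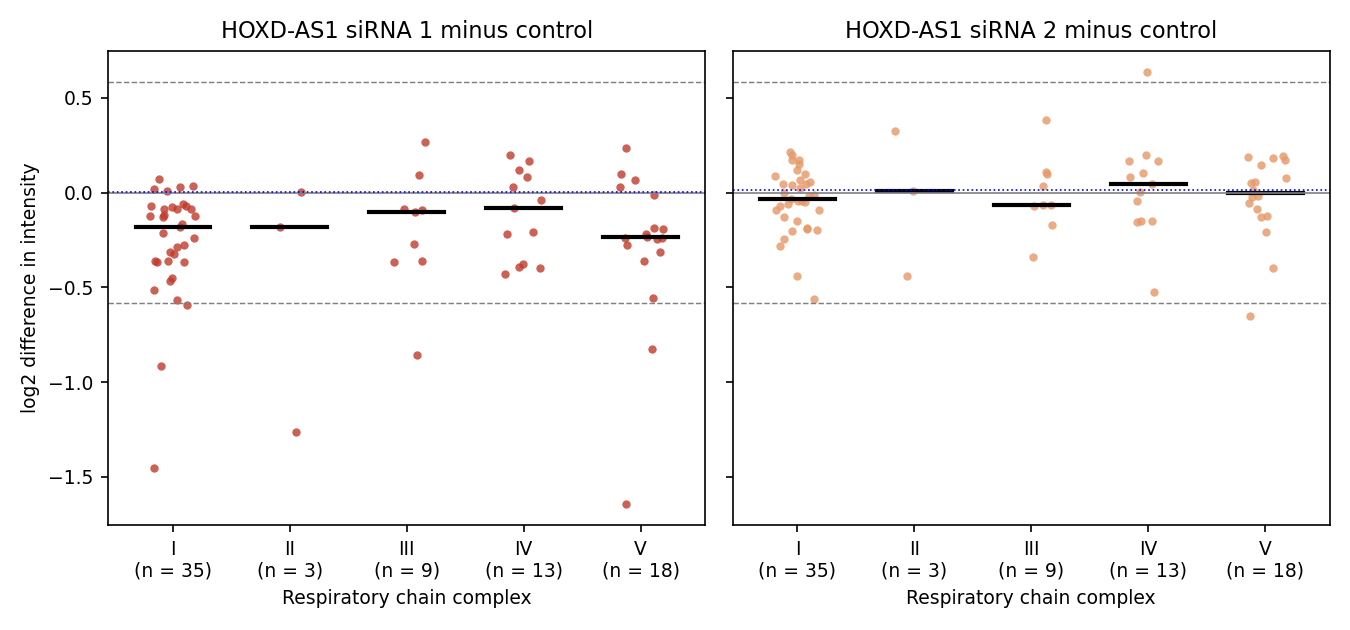
Log2 difference in intensity from the control array (y axis) of each measured gene by respiratory chain complex (x axis), for siRNA 1 on the left and siRNA 2 on the right. Each point is 1 gene on 1 array, black bars are medians, dashed lines mark 1.5-fold and the dotted line the median of all measured genes. With siRNA 1 the medians of all 5 complexes lie below 0, between -0.24 and -0.08, and with siRNA 2 between -0.06 and 0.05.

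The 5 complexes had similar medians. With siRNA 1 the median log2 difference from the control was -0.18 for complex I, with 30 of 35 genes lower, -0.18 for complex II with 2 of 3, -0.10 for complex III with 7 of 9, -0.08 for complex IV with 8 of 13 measured genes, and -0.24 for complex V with 14 of 18. The interquartile ranges overlapped, running from -0.36 to -0.08 in complex I, -0.37 to 0.08 in complex IV and -0.30 to -0.06 in complex V, and complex II rests on 3 genes. With siRNA 2 the medians were -0.03, 0.01, -0.06, 0.05 and 0.00 for complexes I to V, with 21 of 35, 1 of 3, 5 of 9, 5 of 13 and 9 of 18 genes lower. The order of complexes III and IV depended on the probe set used, since averaging the probe sets of each gene gave siRNA 1 medians of -0.23 for complex III and -0.19 for complex IV.

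Complex I oxidises NADH, and its catalytic core genes were further below the control than its accessory genes with siRNA 1. All 6 measured core genes were lower, with a median of -0.36, and 24 of 29 accessory genes were lower, with a median of -0.13. With siRNA 2 the medians were -0.07 for the core and -0.03 for the accessory genes. The core genes were also dimmer, with a median control intensity of 1572 against 2516 for the accessory genes. Across complex I the difference rose with brightness, with rank correlations of 0.39 for siRNA 1 and 0.58 for siRNA 2. Role and brightness were not separated here. NDUFS7, which carries the iron-sulfur cluster next to the coenzyme Q site, read 461 with siRNA 1, 1066 with siRNA 2 and 1262 in the control. The siRNA 1 array thus stood far below the other arrays, with log2 differences of -1.45 for siRNA 1 and -0.24 for siRNA 2. The other 2 measured NDUFS7 probe sets differed by -1.36 and -1.30 with siRNA 1 and by -0.28 and -0.27 with siRNA 2, so all 3 measured probe sets of the gene showed the gap between the siRNAs.

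The other core genes differed less. NDUFS3, a core subunit of the arm that extends into the matrix, read 1602 with siRNA 1, 2197 with siRNA 2 and 2214 in the control, so siRNA 2 and the control were nearly equal (-0.47 and -0.01 on the log2 scale). NDUFS8, which holds further iron-sulfur clusters, differed by -0.36 with siRNA 1 and -0.13 with siRNA 2. NDUFV1, which binds NADH, differed by -0.32 and 0.05, and its partner NDUFV2 by -0.06 and -0.02. NDUFS1, the largest subunit of the complex, differed by -0.36 and -0.19. The probe sets of NDUFS1 did not all run the same way, with 5 measured probe sets spanning -0.57 to 0.27 with siRNA 1 and -0.40 to -0.07 with siRNA 2.

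Among accessory genes of complex I, NDUFB10, a subunit of the membrane arm, read 1332 with siRNA 1, 1704 with siRNA 2 and 2516 in the control. Both siRNA arrays were well below the control (-0.92 and -0.56), and the siRNA 2 value was the lowest of the complex for that siRNA. NDUFB7, another membrane arm subunit, read 962, 1197 and 1453, with differences of -0.60 and -0.28. NDUFA5, a small subunit of the matrix arm, differed by -0.51 and -0.44, similar in both siRNA arrays. NDUFV3 differed by -0.57 with siRNA 1 and -0.06 with siRNA 2. Its 3 measured probe sets, the dimmest near the floor, spanned -0.57 to -0.21 with siRNA 1 and -0.23 to -0.06 with siRNA 2. At the other end, NDUFA8, an accessory subunit, differed by 0.07 and 0.21, NDUFS5 by 0.03 and 0.17, and NDUFB5 by 0.02 and 0.20. NDUFB4 read 5614 with siRNA 1, 7536 with siRNA 2 and 7211 in the control, lower with siRNA 1 alone (-0.36 and 0.06), and its 2 bright probe sets held the same values and were counted once.

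Complex II, or succinate dehydrogenase, links the citrate cycle to the chain, and SDHD stood apart from SDHC and SDHA. SDHD, which encodes a membrane anchor subunit, read 277 with siRNA 1, 490 with siRNA 2 and 665 in the control in the probe set used for the gene. The siRNA 1 array was 2.40-fold below the control and the siRNA 2 array 1.36-fold below it. A further SDHD probe set read 238, 371 and 545, another 199, 284 and 509, and the dimmest 58.6, 76.9 and 102.0. The probe set at 199, 284 and 509 was listed under a pair of identifiers with the same values and was counted once. Every SDHD probe set therefore ranked the arrays in the same order, siRNA 1 lowest and the control highest. All are of types that can also bind related sequences, so their agreement may not be independent. Their log2 differences ran from -1.35 to -0.80 with siRNA 1 and from -0.84 to -0.41 with siRNA 2.

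SDHC, the other membrane anchor, read 775 with siRNA 1, 885 with siRNA 2 and 879 in the control. Its 5 measured probe sets spanned -0.20 to 0.11 with siRNA 1 and -0.24 to 0.28 with siRNA 2, on both sides of the control. SDHA, the flavoprotein that oxidises succinate, read 539, 672 and 537, so siRNA 1 equalled the control and siRNA 2 was above both (0.01 and 0.32). SDHA has pseudogene copies, and the probe sets annotated to SDHA together with SDHAP genes were left out, so its level is uncertain. The gap between SDHD and SDHC with siRNA 1 was larger than the range of either gene's probe sets.

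In complex III, which passes electrons from coenzyme Q to cytochrome c, CYC1 stood furthest below the control. CYC1 encodes cytochrome c1, a catalytic subunit, and read 2212 with siRNA 1, 3170 with siRNA 2 and 4007 in the control. All 3 CYC1 probe sets were lower, from -0.94 to -0.78 with siRNA 1 and from -0.44 to -0.24 with siRNA 2. UQCR10, a small subunit, differed by -0.37 and -0.07, and the core scaffold genes UQCRC1 and UQCRC2 by -0.36 and -0.27 with siRNA 1 and by -0.07 and 0.04 with siRNA 2. UQCRQ, another small subunit, read 7729 with siRNA 1, 8816 with siRNA 2 and 8234 in the control (-0.09 and 0.10). UQCRHL, a copy of UQCRH that can share probes with it, differed by 0.27 and 0.38, while UQCRH differed by -0.08 and -0.06.

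Some complex III genes depended on the probe set. A dimmer UQCRQ probe set read 312 with siRNA 1, 221 with siRNA 2 and 185 in the control, above the control with both siRNAs (0.75 and 0.26). A dimmer UQCRH probe set gave -0.44 with siRNA 1 and -0.40 with siRNA 2, further below the control than the one used. A dimmer UQCRC1 probe set gave -0.49 with siRNA 1 and -0.40 with siRNA 2, and the dimmest, near the floor, -0.26 with each. UQCR11 differed by 0.09 and 0.11 in the probe set used, whereas a dimmer one gave -0.44 with each siRNA. UQCRB, which encodes a subunit near the coenzyme Q site, differed by -0.10 and -0.17 in the probe set used. The 2 other measured UQCRB probe sets read 68.7 and 52.6 with siRNA 1, 29.2 and 22.9 with siRNA 2, and 65.6 and 49.4 in the control. Those values put siRNA 2 alone below the control, by -1.17 and -0.93 with the floor applied, close to the floor. CYCS, which carries electrons from complex III to complex IV and triggers apoptosis when it leaves mitochondria, read 4513 with siRNA 1, 3931 with siRNA 2 and 4479 in the control. Its 3 probe sets ranged from -0.51 to 0.35 with siRNA 1 but from -0.77 to -0.19 with siRNA 2, so only siRNA 2 gave lower values in each of them.

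Complex IV, or cytochrome c oxidase, showed which tissue isoforms were detected. COX4I1, COX6A1, COX6B1, COX7A2, COX7B and COX8A, the widely expressed forms, were measured, whereas the restricted forms COX4I2, COX6B2, COX7A1 and COX8C read below the floor on all 3 arrays. COX6A2, the heart and muscle form of COX6A, read 32.1 with siRNA 1, 31.4 with siRNA 2 and 28.0 in the control, just above the floor. COX7B2, a paralog of COX7B, read 79.4 with siRNA 1, 163 with siRNA 2 and 105 in the control. The siRNA arrays lay on opposite sides of the control (-0.40 and 0.63), and COX7B2, which had 1 measured probe set, was the only member more than 1.5-fold higher in either library.

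The other genes of complex IV stayed within 1.5-fold. COX8A differed by -0.43 with siRNA 1 and -0.05 with siRNA 2, COX6B1 by -0.39 and -0.15, and COX5A by -0.37 and -0.16. COX4I1 read 3361 with siRNA 1, 3568 with siRNA 2 and 3458 in the control, and COX6A1 read 11998, 12452 and 11759, the 3 arrays nearly equal in both genes. COX6C differed by 0.08 and 0.20, COX7A2 by 0.17 and 0.17, and COX7B by -0.21 and 0.00. The 4 measured COX7A2 probe sets spanned 0.01 to 0.17 with siRNA 1 and 0.03 to 0.17 with siRNA 2. COX7A2L, which helps join complexes III and IV into supercomplexes, read 522 with siRNA 1, 384 with siRNA 2 and 553 in the control, so siRNA 2 was the lowest (-0.08 and -0.53). A dimmer COX7A2L probe set gave -0.32 and -1.03, again further from the control with siRNA 2.

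**Figure D2:**
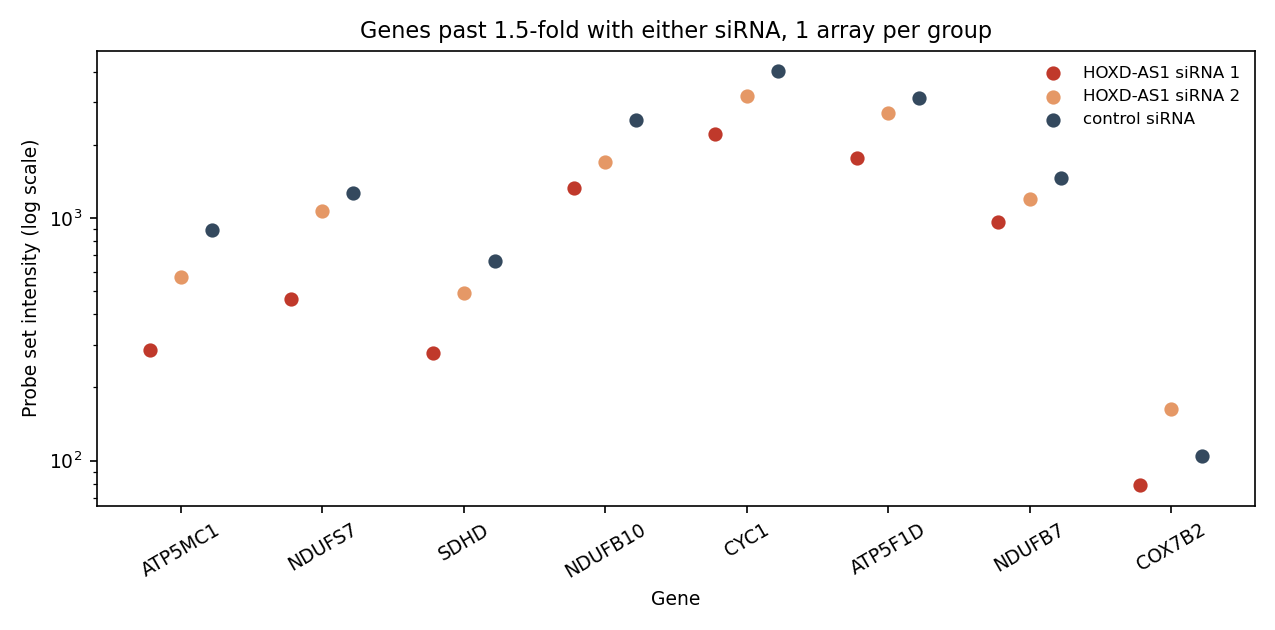
Probe set intensity on a log scale (y axis) of the 8 genes past 1.5-fold with either siRNA (x axis), with 1 point per array for siRNA 1, siRNA 2 and the control. In 7 genes siRNA 1 is lowest and the control highest, as for ATP5MC1 at 286, 568 and 893, while COX7B2 is highest with siRNA 2.

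Complex V, the ATP synthase, held the member furthest from the control in the study. ATP5MC1, 1 of 3 genes for the c subunit whose ring turns in the membrane, read 286 with siRNA 1, 568 with siRNA 2 and 893 in the control. The arrays were well separated, with siRNA 1 3.12-fold and siRNA 2 1.57-fold below the control. ATP5MC1 had a single probe set, of a type that can also bind related sequences, so no other probe set bears on it. The mature c subunit made from ATP5MC1, ATP5MC2 and ATP5MC3 is known to be the same protein. ATP5MC2 read 3296, 3453 and 3755 (-0.19 and -0.12), and ATP5MC3 read 6169, 7225 and 7674 (-0.32 and -0.09). ATP5MC3 varied between its 4 measured probe sets, from -0.65 to -0.02 with siRNA 1 and from -0.29 to -0.02 with siRNA 2, and the probe set at -0.02 read near the floor. The ATP5MC1 difference lay outside that range with both siRNAs.

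The F1 head and central stalk of complex V had a median of -0.27 with siRNA 1 and -0.05 with siRNA 2 over 5 genes. ATP5F1D, the delta subunit of the central stalk, read 1757 with siRNA 1, 2692 with siRNA 2 and 3110 in the control. Its 3 probe sets agreed closely, from -0.92 to -0.82 with siRNA 1 and from -0.26 to -0.21 with siRNA 2. ATP5F1E, the epsilon subunit that pairs with delta, read 5498, 5346 and 4680, above the control with both siRNAs (0.23 and 0.19). ATP5F1C, the gamma subunit that forms the rotating shaft, differed by -0.36 and -0.40, but its 3 probe sets spanned -0.40 to 0.01 with siRNA 2. ATP5F1A, the alpha subunit, differed by -0.27 and 0.05, and ATP5F1B, the catalytic beta subunit, by -0.24 and -0.05. ATP5F1A depended on the probe set. Its second brightest probe set read 2472, 2621 and 2529, near the control with both siRNAs (-0.03 and 0.05). The 2 dimmer ATP5F1A probe sets differed more, by -0.64 and -0.77 with siRNA 1 and by -0.35 and -0.44 with siRNA 2.

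All 4 genes of the peripheral stalk, which holds the head still, were lower with siRNA 1, with a median of -0.22, led by ATP5PD at -0.56, and 2 of 4 were lower with siRNA 2, with a median of 0.00. The 5 small membrane subunits ATP5ME, ATP5MF, ATP5MG, ATP5MJ and ATP5MK had medians of 0.03 and 0.15, with 2 and 1 lower. Their median control intensity was 4822, against 3824 for complex V, where the difference also rose with brightness (rank correlations of 0.53 and 0.62). ATP5ME differed by 0.03 and 0.19, and ATP5MK by 0.10 and 0.18. With siRNA 1 the probe sets of ATP5ME spanned -0.11 to 0.03 and those of ATP5MK -0.29 to 0.13, on both sides of the control. Averaging the probe sets of each gene gave -0.04 for ATP5ME and -0.02 for ATP5MK with siRNA 1. All ATP5MG probe sets were above the control with siRNA 1, from 0.06 to 0.45. The siRNA 1 median of 0.03 thus rests on the probe sets used. ATP5IF1, which inhibits ATP hydrolysis by the enzyme, differed by -0.25 and 0.17, with 4 probe sets from -0.44 to 0.53 and from -0.31 to 0.18, on both sides of the control with each siRNA. ATP5MGL was below the floor on all arrays.

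**Figure D3:**
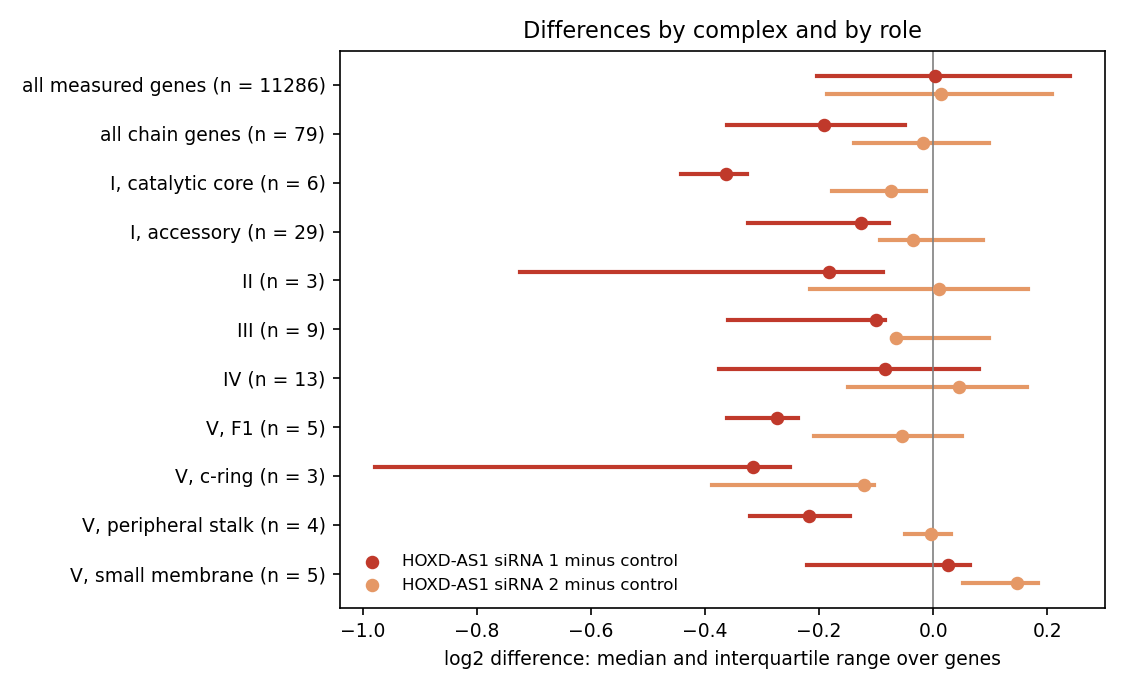
Median (point) and interquartile range over genes (line) of the log2 difference from the control (x axis), for siRNA 1 and siRNA 2, by complex and by role (rows). With siRNA 1 the catalytic core of complex I has a median of -0.36 and its accessory genes -0.13. The small membrane subunits of complex V lie at 0.03 in the probe sets used.

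The only error that 1 array per group allows is the spread between probe sets of a gene, which covers the choice of probes but not cells or transfection. Among members, 70 further probe sets that read, like the one used, above an intensity of 100, in 42 genes, differed from the probe set used by a median of 0.09 on the log2 scale with siRNA 1 and 0.08 with siRNA 2, and 90% of them by no more than 0.36 and 0.41. Over all measured genes the same medians were 0.11 in each library. Of members with 2 or more measured probe sets, NDUFS7, SDHD, CYC1, ATP5F1D and COX8A had siRNA 1 differences larger than that range in every one. ATP5MC1, NDUFB10 and other members with 1 measured probe set could not be checked in this way. The siRNA 1 differences of 60 of 79 members were within 0.36.

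**Figure D4:**
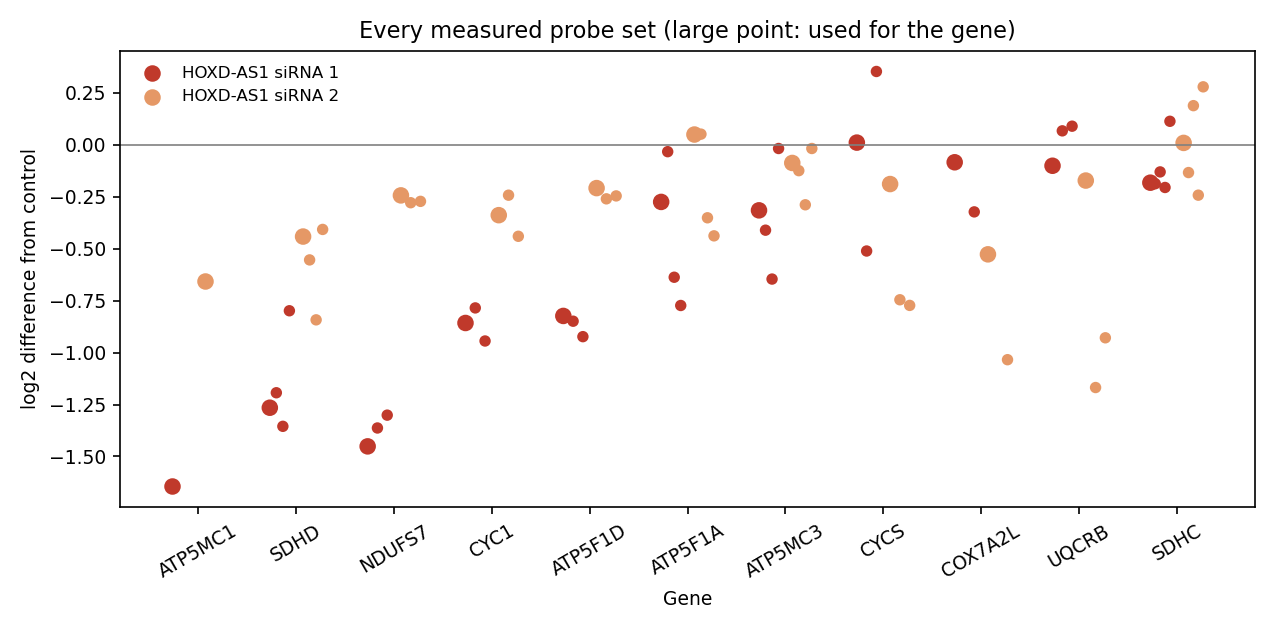
Log2 difference from the control (y axis) of every measured probe set of 11 genes (x axis), for siRNA 1 and siRNA 2, with the probe set used for the gene as the large point. Probe sets of SDHD, NDUFS7, CYC1 and ATP5F1D lie below 0 with both siRNAs, whereas those of CYCS and UQCRB spread on both sides of 0 with siRNA 1.

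Genes that build the complexes were set against the control in the same way, where 48% of all measured genes were lower with siRNA 1 and 46.9% with siRNA 2. Of 18 assembly factors of complex I, 15 were lower with siRNA 1 and 11 with siRNA 2, with medians of -0.30 and -0.12. ECSIT, needed for complex I assembly, read 80.2 with siRNA 1, 114 with siRNA 2 and 149 in the control (-0.89 and -0.38), while TIMMDC1, another assembly factor, differed by 0.04 and 0.03. The 4 SDHAF genes of complex II had medians of -0.17 and -0.21, with 3 and 4 lower. The 6 factors of complex III had medians of -0.13 and -0.07, with 5 and 4 lower, led by BCS1L, which inserts the Rieske protein (-0.76 and -0.43). Of 21 measured factors of complex IV, 13 and 15 were lower (61.9% and 71.4%), with medians of -0.17 and -0.14, from COA3 at -0.71 and -0.15 to COX15, which makes heme A, at 0.28 and 0.38. The 5 measured factors of complex V had medians of -0.29 and -0.20, with 4 and 3 lower.

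Coenzyme Q synthesis genes lay on both sides of the control. Of 13 measured genes, 9 were lower with siRNA 1 and 8 with siRNA 2, beside 48% and 46.9% of all measured genes, with medians of -0.11 and -0.09. PDSS1 and PDSS2, which form the enzyme that makes the isoprenoid tail, lay on opposite sides of it. PDSS1 read 166 with siRNA 1, 187 with siRNA 2 and 340 in the control (-1.04 and -0.87), and PDSS2 read 218, 320 and 171 (0.34 and 0.90). COQ10A, a coenzyme Q-binding protein gene, differed by 0.37 and 0.61.

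Of 18 genes for the expression of mitochondrial DNA, 13 were lower with siRNA 1 and 14 with siRNA 2, beside 48% and 46.9% of all measured genes, with medians of -0.18 and -0.21. TFAM, which packages and activates mitochondrial DNA, read 428, 422 and 544, lower by about the same amount with both siRNAs (-0.35 and -0.37); it was named after its values were seen. SLIRP, a mitochondrial RNA-binding protein gene, differed by -0.43 and -0.24, and TFB2M, a mitochondrial transcription factor, by 0.18 and -0.61. Of the 11 regulators of respiratory genes 7 were measured in their brightest probe set, with medians of -0.06 and -0.13. PPRC1, a coactivator of the PGC-1 family, differed by -0.41 and -0.51, and MYC read 1566 with siRNA 1, 913 with siRNA 2 and 1591 in the control, lower with siRNA 2 alone. GABPA read 41.8 with siRNA 1, 28.2 with siRNA 2 and 25.4 in the control, which was below the floor, so the differences of 0.69 and 0.12 are lower bounds. The brightest probe sets of PPARGC1A and PPARGC1B were below the floor on all arrays, and NRF1 differed by -0.09 and -0.13. Mitochondrially encoded subunits were not analysed here.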

How the data were processed

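RNA from LNCaP cells, 3 arrays in 3 groups, was hybridised to Affymetrix arrays after amplification to biotin-tagged cRNA, per the labels' protocols. The authors deposited 1 linear intensity per probe set and array. The submitters' processing notes name GCOS 1.4; background and normalization steps are not given in the sources used here. All 3 arrays had nearly the same distribution, so a shift of most transcripts one way could not be seen. Gene names came from the platform annotation, and all 84 member symbols equalled the RefSeq symbol of their Entrez identifier.

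Values below the median of all values (25.96) were raised to it, log2 was taken, and a gene was represented by its brightest probe set, with probe sets of identical values counted once. Counts used 1.2-fold (added after values were seen), 1.5-fold and 2-fold thresholds. Python 3.11.15 with pandas 2.3.3 and numpy 2.4.6 was used, and the steps were tested on simulated data. Named genes were every probe set of ATP5MC1 and SDHD, the 2 lowest and 2 highest genes per complex and siRNA, the brightest gene per complex, members past 1.5-fold, fixed isoform groups, SDH genes, CYC1, CYCS and core genes, and the lowest and highest gene of each pathway list; others were chosen after their values were seen. The members and lists were chosen with earlier results of these data known. Alternatives changed the floor, the probe set rule, the normalization, the mean for the median, and the placing of ATP5IF1. With 1 array per group no test was possible, and the number of arrays limits precision.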

Additional observations from a re-analysis of the deposited data

How the results depend on the processing

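No paired analysis was possible because each group held 1 array. The median log2 difference of the respiratory chain kept its sign and stayed within 0.1 of the reported value under each alternative with siRNA 1 (-0.24 to -0.18). With siRNA 2 the median ran from -0.07 to 0.02. It was above 0 with quantile normalization, when 36 of 79 genes were lower, beside 44.9% of all measured genes. The siRNA 2 medians of complexes II, III, IV and V, all within 0.1 of 0, and the siRNA 1 median of the regulators changed sign under at least 1 alternative. The other placing of NDUFA4 was not run, as that gene was not analysed here. Plain probe sets alone left 17 members, of which 12 were lower with siRNA 1 and 11 with siRNA 2. Plain probe sets put 45.7% of all measured genes below the control with siRNA 1 and 48.7% with siRNA 2. Of the 17 members they gave 10 lower with siRNA 1 than siRNA 2, with a median of -0.042. They gave 0 genes lower at 1.5-fold or 2-fold with siRNA 1 or against siRNA 2, 1 higher at 1.5-fold with siRNA 1, 0 higher with siRNA 2, and 1 higher at 1.5-fold and 2-fold against siRNA 2. Their medians were -0.35 and -0.33 in complex III, -0.20 and -0.087 in complex IV, -0.18 for complex I factors with siRNA 1, -0.56 and -0.22 for complex III factors, -0.025 for complex IV factors with siRNA 1, -0.017 and 0.24 for complex V factors, -0.40 for coenzyme Q synthesis with siRNA 1 and 0.10 for mitochondrial DNA expression with siRNA 1, over few genes; complex IV and the complex V factors with siRNA 2 and the last value had the opposite sign. Members above an intensity of 1000 were an alternative chosen after seeing the data. With siRNA 1, 4 of these 65 were lower at 1.5-fold and 0 at 2-fold, beside 46 and 9 of all 1171 genes of that brightness. With siRNA 2, 0 were lower and 0 higher at 1.5-fold, beside 27 and 41. Against siRNA 2, 1 was lower at 1.5-fold and 0 at 2-fold with siRNA 1, beside 29 and 2. Complex III members of that brightness were at -0.27 with siRNA 1. For the other alternatives, the shares of all measured genes past 1.5-fold and 2-fold were not computed. Averaged probe sets gave -0.23 and -0.17 in complex III, -0.19 in complex IV and -0.16 for complex V factors with siRNA 1, 3 genes lower at 1.5-fold with siRNA 2, and 1 higher against siRNA 2. The mean over genes gave -0.48 in complex II and -0.26 for complex III factors with siRNA 1, and -0.084 for complex V factors and -0.26 for the regulators with siRNA 2. With the floor at the 75th percentile, 0 genes were higher at 1.5-fold with siRNA 2, 1 was 2-fold lower against siRNA 2, complex IV factors were at -0.030 with siRNA 1 and the regulators at -0.51 with siRNA 2. With a 25th percentile floor, or none, complex V factors were at -0.19 with siRNA 1, and with none at -0.10 with siRNA 2. Apart from these limits by construction (fewer genes), the cause of each change was not tested.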
